A study of Drosophila melanogaster with 4 samples.

Results

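In the authors' list for both replicates, stretches of at least 50 kb without an H3K27me1 cluster made up 30.9% of 6 chromosome arms. These were 2L, 2R, 3L, 3R, X and chromosome 4 of adult fruit flies (Drosophila melanogaster), and the tissue was the head. The share was 44.7% in the list of replicate 1 alone and 44.8% in that of replicate 2. A cluster is a region that the authors' lists give as enriched for this mark. The stretches were chosen by their length, as gaps of 50000 bp or more between neighbouring clusters in the list that the authors made for the set of both replicates. This rule found 360 stretches among 9414 gaps, which is 3.82% of all gaps on these 6 arms. Together they held 37.2 Mb, or 44.3% of the length lying between clusters. The 2447 gaps of 5 to 50 kb, used below as the background, held nearly the same length, 36.7 Mb.

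All libraries came from wild-type Oregon-R flies, staged as Mixed Adult and kept in population cages on a 22-day cycle, and from nuclei of sieved heads. The series holds 2 chromatin immunoprecipitation sequencing (ChIP-seq) libraries made with a Millipore antibody to H3K27me1 and 2 Input libraries, and each ChIP replicate had 1 Input library for its list. Nothing in the labels tells whether the replicates were separate collections, and their spread may be technical. A head holds many cell types, and the labels describe no sorting of them.

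H3K27me1 is histone H3 with a single methyl group on lysine 27. The Polycomb enzyme E(z) can add up to a trimethyl group to the same lysine, and a given histone tail carries only one of these states at a time. In flies the trimethyl form is known for broad domains of silenced genes, the dimethyl form for its wide spread over the genome, and the monomethyl form for its presence at transcribed genes. A stretch without clusters is therefore sequence in which the authors' list gives no enrichment of the monomethyl form over Input, and the lists say nothing of the other states.

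The replicate-set list stands for the same libraries as the replicate lists. No value below is independent of the way the stretches were chosen, and all are given as descriptions with no test. The lists hold no read coverage, so an unmethylated stretch, a stretch in which the lysine carries another state and sequence to which few reads align cannot be told apart. Sequencing depth is unknown. Coordinates are those of FlyBase release 5. Annotation of that release was not used here, so stretches are named by position and not by their genes.

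The stretches were found on every arm and took up between 26.96% of 2R and 35.7% of 2L. Arm 2L held 75 stretches over 8.21 Mb, and 2R held 54 over 5.70 Mb. On 3L there were 69 stretches over 7.37 Mb (30.0% of the arm), and on 3R, the longest arm, 95 over 8.80 Mb (31.5%). The X held 61 stretches over 6.69 Mb (29.8%) and the small chromosome 4 held 6 over 0.394 Mb (29.1%). Arm 2L, the most occupied by stretches, had 28.0% of its length in clusters, and 2R, the least occupied, had 32.7%. The X (26.6%) and chromosome 4 (25.3%) had still less in clusters, yet in this list stretches took up less of them than of 2L, 3L and 3R. The replicates' own lists did not keep this order. Their gaps of 50 kb or more took up 46.4% of the X in replicate 1 and 52.3% in replicate 2. On chromosome 4 they took up 37.7% and 48.6%, on 3L 44.6% and 41.7%, and on 3R 44.2% and 44.0%.

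Most stretches were shorter than 100 kb, and a few were several times as long as the minimum. The median length was 78.8 kb, with quartiles of 61.2 kb and 121.9 kb. In number, 160 measured 50 to 75 kb and 72 measured 75 to 100 kb. Another 102 measured 100 to 200 kb, and they held 14.0 Mb, the largest total of these classes. Only 26 reached 200 kb and 9 reached 300 kb, and these 9 held 3.22 Mb. Stretches on the X had the highest median, 93.9 kb, and those on chromosome 4 the lowest, 63.8 kb, with a longest of 86.1 kb. The medians of 2L, 2R, 3L and 3R lay between 75.6 kb (3R) and 82.9 kb (2L). Arm 3R thus had the most stretches per Mb of the large arms in the replicate-set list, 3.40, and the shortest of them by median. Neither held in the replicates' own lists. Per Mb, 2L was highest of the large arms in replicate 1 (4.08) and the X in replicate 2 (4.33), against 3.87 and 4.09 on 3R. The lowest median of the large arms was on 3L in both, 84.6 kb and 84.1 kb, against 85.9 kb and 85.5 kb on 3R.

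**Figure D1:**
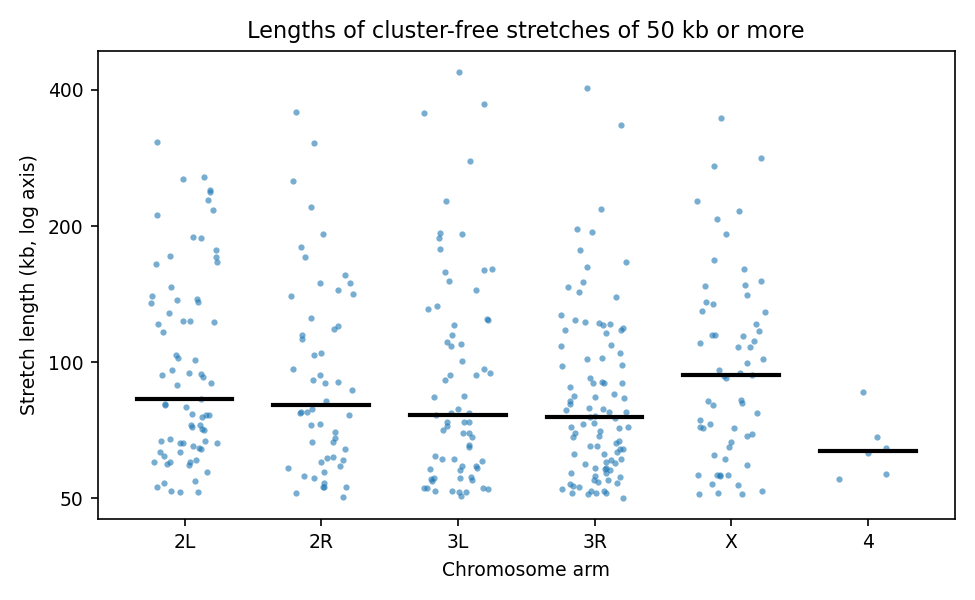
Length of each stretch (kb, log axis) by chromosome arm, 1 point per stretch, with a bar at the median of the arm. Most points lie between 50 and 125 kb on every arm, the X has the highest median (93.9 kb), and only chromosome 4 has no stretch of 100 kb or more.

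The minimum of 50 kb cut through a continuous range of lengths. The 3 gaps just above it measured 50227 bp (3R, 16247897 to 16298123), 50461 bp (2R, 19642871 to 19693331) and 50647 bp (3L, 24026497 to 24077143). Those just below it measured 49991 bp (2L, 17599449 to 17649439), 49927 bp (3R, 13308495 to 13358421) and 49763 bp (3L, 4435175 to 4484937). The clusters beside these 6 gaps were from 1001 bp to 3963 bp wide, on both sides of the limit.

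The longest stretch was on 3L, from 18173983 to 18611887, and measured 437.9 kb. Neither replicate had a cluster in it, and around its middle the cluster-free length was 505.9 kb in replicate 1 and 506.0 kb in replicate 2. Both replicates ran on to the left because the clusters that separate it from a second stretch (18106017 to 18164439, 58.4 kb) were seen in the replicate-set list only. The second longest, on 3R from 2485787 to 2890111, measured 404.3 kb, and the cluster-free length was 404.4 kb in replicate 1 and 404.5 kb in replicate 2. The 3R stretch thus had nearly the same length in all 3 lists, while the 3L stretch was longer in the replicates. The clusters beside the 3R stretch had scores of 0.30 on the left and 0.57 on the right, against a median of 0.50 for all clusters, and both replicates had them.

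Arm 3R held a further stretch of this size, from 12479539 to 12814371 (334.8 kb), with a cluster-free length of 336.8 kb in replicate 1 and 336.3 kb in replicate 2. No cluster of either replicate entered it. As background, 3R carries both Hox gene complexes of the fly, the Antennapedia complex and the bithorax complex, which hold the genes that set segment identity. No stretch was assigned to either complex here. The next longest stretch of 3R, from 19210275 to 19428677, was much shorter at 218.4 kb, and lay in cluster-free sequence of 297.1 kb in replicate 1 and 298.5 kb in replicate 2.

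The next longest stretches on 3L ran from 23337839 to 23709789 (372.0 kb) and from 13509191 to 13865513 (356.3 kb). The first of them was free of clusters in both replicates, over 372.3 kb in each. In the other, a replicate 1 cluster reached 47 bp past the edge and replicate 2 had no cluster. The longest stretch of 2R, from 2143233 to 2501081 (357.8 kb), was equally bare, with cluster-free lengths of 358.5 kb in replicate 1 and 358.8 kb in replicate 2. It ended at a strong cluster of 7995 bp with a score of 1.26, among the 10% of highest-scoring flanks. The next on 2R, from 12986129 to 13291211, measured 305.1 kb. The third, from 727109 to 978819 (251.7 kb), was the stretch with the most replicate signal, 1819 bp in replicate 1 and none in replicate 2.

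The longest stretch of the X, from 21503205 to 21849475 (346.3 kb), lay near the centromere end and was free of clusters in both replicates, over 348.8 kb in replicate 1 and 358.8 kb in replicate 2. The second, from 7237501 to 7520299 (282.8 kb), had a cluster-free length of 283.4 kb in replicate 1 and 342.1 kb in replicate 2. Replicate 2 lacked the cluster on its right, which was 1801 bp wide. The third, from 20395789 to 20667501, measured 271.7 kb. On 2L the longest, from 1193023 to 1500389 (307.4 kb), lay toward the other end of the arm, and the next were 22477985 to 22734745 (256.8 kb) and 15915405 to 16169449 (254.0 kb). The cluster-free length around the last of these was 398.6 kb in replicate 1 and 398.9 kb in replicate 2. Neither replicate had the 1015 bp cluster on its left or the 2347 bp cluster before that. The cluster-free sequence thus also took in the stretch from 15771043 to 15908067.

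Chromosome 4, the small dot chromosome, held 6 stretches. They ran from 393351 to 457923 (64.6 kb), 502975 to 565993 (63.0 kb), 716229 to 802303 (86.1 kb), 808233 to 876739 (68.5 kb), 978573 to 1035267 (56.7 kb) and 1082975 to 1138061 (55.1 kb). A replicate cluster entered only the second of them, by 16 bp in replicate 2. Those of 86.1 kb and 68.5 kb were parted by a single cluster of 5929 bp with a score of 0.78 that both replicates had, and together they held 154.6 kb. Of the 6 stretches, that of 55.1 kb differed most between the lists. Neither replicate had the cluster on either side of it, and the cluster-free length there was 67.9 kb in replicate 1 and 121.8 kb in replicate 2. The longest gap of chromosome 4 was 101.05 kb in replicate 1 and 189.2 kb in replicate 2, and that of replicate 2 touched no stretch.

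The replicate lists were next searched for their own gaps of 50 kb or more, since the clusters of 1 library can close or open a gap. Replicate 1 held 456 such gaps over 53.8 Mb and replicate 2 held 472 over 54.0 Mb, a mean of 464.0 ± 11.3 (SD, n = 2). Both lists thus had more and longer gaps than the replicate-set list, which holds more clusters (9420 on these arms). The share of the 6 arms in such gaps was 44.8% ± 0.117 (SD, n = 2). The lists shared 49.2 Mb, which was 91.6% of the gap length of replicate 1 and 91.2% of that of replicate 2. Replicate 1 had 35 such gaps that touched none of replicate 2, with a median of 56.9 kb and a longest of 100.3 kb. Overlap with the stretches of the replicate-set list was lower. They held 68.8% of the gap length of replicate 1 and 68.5% of that of replicate 2. Touching no stretch were 140 gaps of replicate 1 (longest 190.3 kb) and 148 of replicate 2 (longest 189.2 kb). In turn, 359 of the 360 stretches overlapped such a gap of each replicate.

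On the large autosomal arms (2L, 2R, 3L and 3R) the summed number was 369 gaps in replicate 1 and 368 in replicate 2. By arm, replicates 1 and 2 had 94 and 93 on 2L, 71 and 72 on 2R, 96 and 89 on 3L, and 108 and 114 on 3R, so opposite differences on 3L and 3R nearly cancelled in the sum. The numbers differed most on the X, with 80 gaps in replicate 1 and 97 in replicate 2, and their share of the X was 46.4% and 52.3%. On chromosome 4 both held 7 gaps, covering 37.7% of it in replicate 1 and 48.6% in replicate 2. The order of X and autosomes differed between the lists as well. Per Mb, the X had 0.897 times as many stretches as the autosomal arms in the replicate-set list, 0.934 times in replicate 1 and 1.14 times in replicate 2. For stretches of 100 kb or more in the replicate-set list the ratio was 1.15. Which of the arms had more stretches therefore depended on the list and on the minimum length, and no order of X and autosomes is given.

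**Figure D2:**
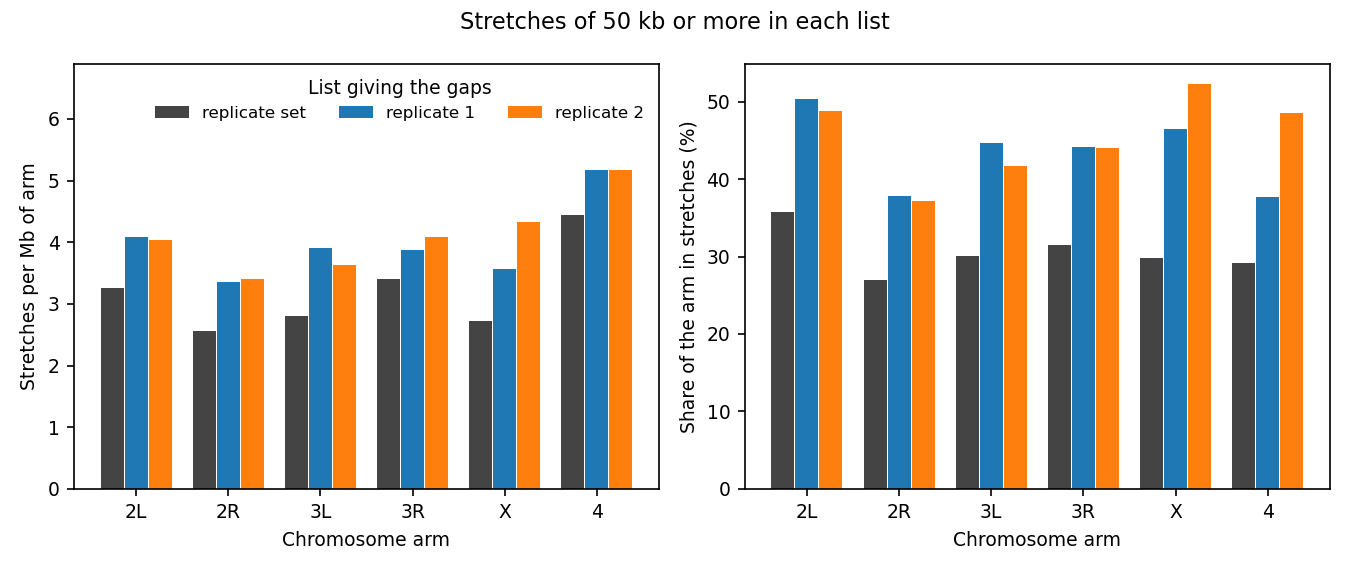
Gaps of 50 kb or more per Mb of arm (left) and the share of the arm they cover in percent (right), for the replicate-set list and each replicate list, by arm; bars are single values with no error. The replicates lie above the replicate-set list on every arm, and replicate 2 exceeds replicate 1 on the X (97 against 80 gaps).

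The X differed from the large autosomal arms together in its shorter gaps, but chromosome 4 was near the X. Gaps of 5 to 50 kb numbered 24.5 per Mb on the X and 19.3 per Mb on the large autosomal arms, and covered 34.6% and 29.5% of them. On chromosome 4 they numbered 23.7 per Mb and covered 33.1%, and on 2R 20.2 per Mb and 32.0%. Stretches of 50 kb or more covered 29.8% of the X and 31.1% of the autosomal arms, and clusters 26.6% and 30.9%. In the replicate-set list, the part of the X not in clusters was thus divided more often into gaps of medium length than on the large autosomal arms. Values by arm for such gaps in the replicate lists are not given here.

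Clusters of the replicates were nearly missing from the stretches, which were selected on the list made for the same replicates. Replicate 1 covered 6.31 kb of the 37.2 Mb and replicate 2 covered 6.06 kb, or 0.0170% and 0.0163%. In the gaps of 5 to 50 kb, which are shorter and so have more edges per Mb, each replicate covered 0.133%. In 260 of the 360 stretches (72.2%) neither replicate had a single base in a cluster, against 73.9% of the gaps of 5 to 50 kb. Where a replicate did enter, it was nearly always by a cluster reaching past the edge, in 57 stretches for replicate 1 and 44 for replicate 2. The median overlap was 46.5 bp in replicate 1 and 32.0 bp in replicate 2, and these edge overlaps came to at most 539 bp in a stretch, on 2L from 14408017 to 14474365 in replicate 1.

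A whole replicate cluster lay in 4 stretches, 1 for replicate 1 and 3 for replicate 2. In the background of 5 to 50 kb gaps, 0.368% held a whole cluster of replicate 1 and 0.572% held one of replicate 2, against 0.278% and 0.833% of the stretches. Stretches are longer, and per Mb they held 0.0269 and 0.0807 such clusters, against 0.245 and 0.382 in the background gaps. With 1 and 3 such clusters, nothing particular to the stretches is read from these counts.

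All 4 inner clusters were narrow, in lists whose narrowest clusters measured 1301 bp, and the other replicate covered no base of any of them. Replicate 1 had 1768 bp on 2R, from 976196 to 977963, with a score of 0.47, 0.856 kb from the edge of the 251.7 kb stretch named above. Replicate 2 had 1301 bp on 3L (12409037 to 12410337, score 0.54) and 1315 bp on 3R (22589362 to 22590676, score 0.54). The remaining one was 1481 bp on the X (13387028 to 13388508, score 0.69). Their scores exceeded only 3.64% of the clusters of replicate 1 in the first case, and 11.4%, 11.8% and 43.9% of those of replicate 2. The 3R cluster was the most isolated, 23.7 kb inside its stretch.

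The lists also differed in how far the cluster-free sequence reached. Taken from the middle of each stretch outward, it was longer than the stretch in 353 cases in replicate 1 and 356 in replicate 2. A shorter length was hardly possible, since replicate clusters were nearly missing from the stretches. The replicate lists also hold fewer clusters, 6365 and 6476 against 9420. The same lengths are not given for the background gaps, so nothing particular to the stretches is read from them. The median cluster-free length was 1.16 times the length of the stretch in replicate 1 and 1.13 times in replicate 2. In 76 and 68 cases it was at least 2 times as long. In replicate 1, 37 gaps took in at least 2 stretches each, and 80 stretches were joined to a neighbour in this way. In replicate 2, 30 gaps joined 65 stretches.

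The spacing of the stretches along the arms was described by runs of neighbouring stretches. With a distance of at most 100 kb as the limit, 233 of the 360 (64.7%) had another stretch beside them and formed 81 runs of 2 or more. The share was 6 of 6 on chromosome 4, 73.7% on 3R, 73.3% on 2L, 63.8% on 3L, 52.5% on the X and 48.1% on 2R. Runs of 4 or more numbered 17, of which 7 were on 3R and 4 on 2L. In the replicates' own gaps the share was higher, at 78.3% in replicate 1 and 79.0% in replicate 2, where gaps are more numerous. The share follows in part from the number of stretches on an arm, and its size rested on the distance, at 48.3% for 50 kb and 82.8% for 200 kb. The share that their number and length alone would give was not computed. No closeness beyond that is therefore read from these values.

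The largest run held 9 stretches in a row at the centromere end of 3L, from 23027741 to 24531639. It spanned 1503.9 kb and ended 11.9 kb before the end of the arm's sequence. Stretches made up 85.8% of it, in lengths from 50.6 kb to 372.0 kb. The 18 clusters between them, 12.0 per Mb, covered 5.80% of the run in the replicate-set list, 4.10% in replicate 1 and 3.37% in replicate 2. The arm as a whole was covered to 31.8% by the replicate-set list.

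Similar runs lay at the same end of 2L and the X. On 2L, 7 stretches from 21760959 to 22956861 made up 82.9% of 1195.9 kb, and the replicates covered 7.62% and 6.38% of this run. On the X, 6 stretches from 21262371 to 22383549 made up 82.6% of 1121.2 kb, and the replicates covered 5.52% and 3.74% of it. The 2L run ended 54.7 kb and the X run 39.3 kb before the end of the arm's sequence. The runs with the most stretches on the other arms were elsewhere. On 2R, 6 stretches lay from 18827345 to 19693331, and on 3R, 6 from 24062503 to 24633299. These runs were more often interrupted, with 54.3 and 40.3 clusters per Mb. Chromosome 4 had no run of more than 2. A run of 4 stretches on 3R, from 1833231 to 2168243, was interrupted only in the replicate-set list. Its 4 inner clusters covered 1.40% of 335.0 kb, and neither replicate had a cluster there, so that it was a single gap of 335.5 kb in replicate 1 and 336.2 kb in replicate 2.

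The 2 Mb at the centromere end showed how far the arms differed. Stretches took up 71.7% of it on 3L, 64.6% on the X and 58.1% on 2L, but 28.8% on 2R and 19.4% on 3R. The replicates' own gaps gave the same order, from 83.4% and 80.6% on 3L to 27.4% and 24.8% on 3R. Clusters of the replicate-set list covered 10.9% of this end on 3L and 43.4% on 3R. Over the 4 large autosomal arms together, stretches took up 44.5% of the centromere ends, 33.4% of the 2 Mb at the other ends and 29.6% of the sequence between. The centromere ends held 11.8% of the stretch length of these arms. The share at the centromere end was thus far above that of the whole arm on 2L, 3L and the X, close to it on 2R, and below it on 3R.

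**Figure D3:**
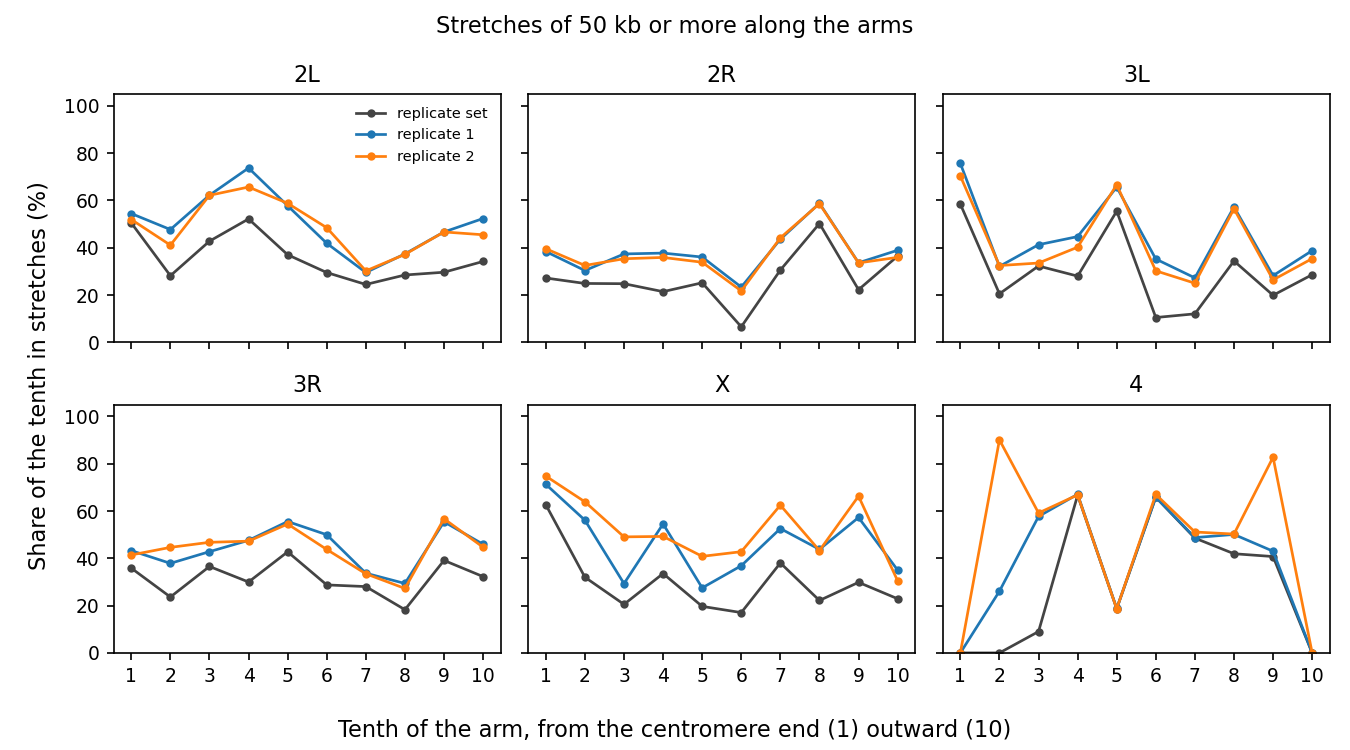
Share of sequence lying in gaps of 50 kb or more (percent) in 10 equal parts of each arm, from the centromere end (1) to the other end (10), in the replicate-set list and in each replicate list. In the replicate-set list the part at the centromere end is the highest on 3L (58.4%) and the X (62.6%), while 2L and 3L also have a high part inside the arm (52.2% and 55.5%) and 2R peaks in part 8 (50.2%).

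Along the arms, the share of sequence in stretches varied widely. The blocks used here leave out the sequence after the last full block, which on 2L, 3L and the X is at the centromere end. In blocks of 1 Mb, their share of a block had a median of 27.9% over the 117 full blocks of the 5 large arms, with quartiles of 18.9% and 40.8%. It was above 50% in 15 blocks and at 0% in 5. The most occupied block was 3L 23000001 to 24000000 (81.2%), followed by 2L 22000001 to 23000000 (75.4%) and 3R 2000001 to 3000000 (71.2%). This 3R block held the 404.3 kb stretch and touched 5 other stretches or parts of them. The replicates' own gaps filled 75.9% and 76.0% of it. Next were X 21000001 to 22000000 (67.8%), 3L 13000001 to 14000000 (65.4%) and 3L 18000001 to 19000000 (61.95%), which held the longest stretch of all. The 5 blocks with no stretch were 2R 5000001 to 6000000, 2R 11000001 to 12000000, 3L 8000001 to 9000000, 3L 19000001 to 20000000 and X 10000001 to 11000000. In the replicate lists all 5 held parts of such gaps, from 0.547% of the 3L 8000001 block in replicate 1 to 29.1% of the X block in replicate 1.

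The clusters at the edges of the stretches were ordinary in width. On the 720 sides of the stretches stood 685 different clusters, since 35 stood between 2 stretches. Their median width was 2367 bp (quartiles 1397 and 4115 bp), against 2199 bp at gaps of 5 to 50 kb, 2569 bp at gaps under 5 kb and 2469 bp for all clusters. A cluster can stand beside a stretch on one side and a background gap on the other, so these sets overlap. Clusters of 10 kb or more stood on 4.58% of the sides of stretches and 5.13% of the sides of background gaps. No stretch had one on both sides, and 33 had one on 1 side. In the replicates' own lists the difference in median width, stretches minus background, was 81.5 bp in replicate 1 and -84.0 bp in replicate 2. The direction of the difference thus turned between the replicates.

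Scores at the edges were slightly higher beside stretches. Scores are the authors' and have no stated unit. The median was 0.53 beside stretches, 0.50 beside gaps of 5 to 50 kb and 0.50 for all clusters. By arm the medians were 0.51 against 0.46 on 2L, 0.53 against 0.49 on 2R, 0.50 against 0.47 on 3L, 0.50 against 0.46 on 3R and 0.59 against 0.57 on the X. On chromosome 4 they were 0.71 against 0.49, over only 12 sides of stretches, where the median width was 6253 bp against 2642 bp. The score beside stretches was the higher one on all 6 arms of the replicate-set list. In the replicates' own lists the medians beside stretches and background gaps were 0.726 and 0.725 in replicate 1, and 0.731 and 0.725 in replicate 2, with differences of 0.0012 and 0.0064.

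**Figure D4:**
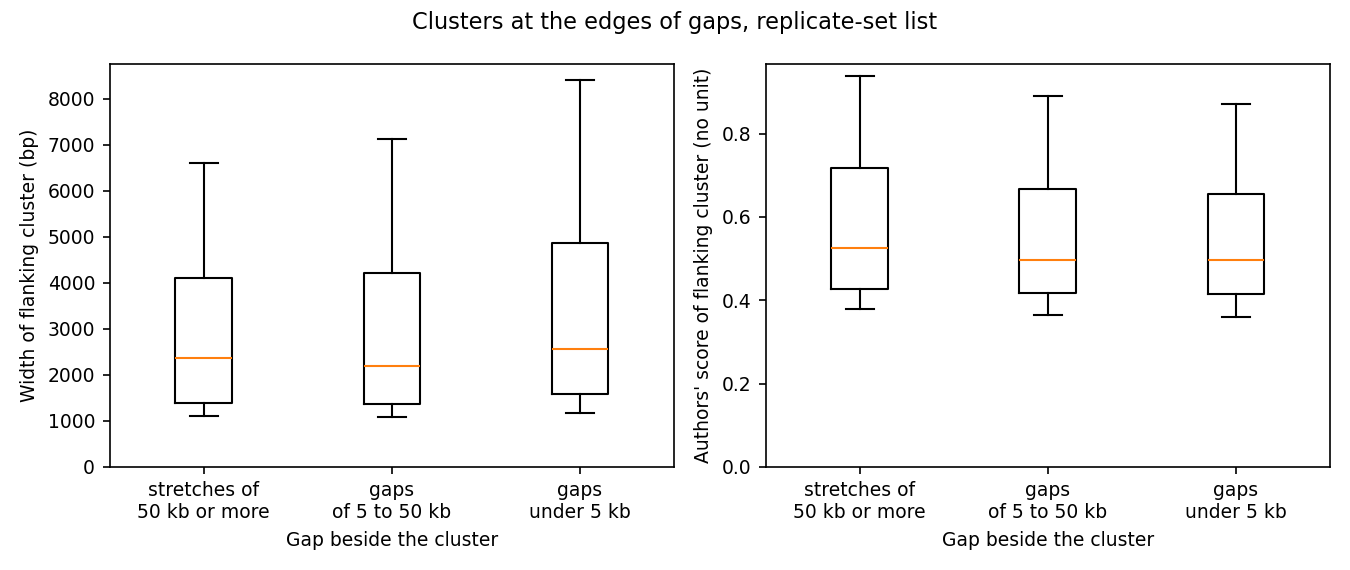
Width in bp (left) and the authors' score, with no unit (right), of clusters beside stretches of 50 kb or more, gaps of 5 to 50 kb and gaps under 5 kb in the replicate-set list; boxes give quartiles and median, whiskers the 10th and 90th percentiles over sides of gaps. Median scores are 0.53, 0.50 and 0.50, and the boxes overlap over most of their range.

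The clusters at the edges were also looked up in the replicate lists. Of the 720 sides, 353 (49.0%) had a cluster that overlapped clusters of both replicates, against 41.9% of the sides of gaps of 5 to 50 kb, 47.3% of the sides of gaps under 5 kb and 45.9% of all clusters. The share at stretches was thus above that of the gaps of 5 to 50 kb and close to that of gaps under 5 kb. Both edges were seen in both replicates for 80 stretches, 1 edge for 193 and none for 87. By length of the stretch the share of sides was 47.5% at 50 to 75 kb, 44.4% at 75 to 100 kb, 51.96% at 100 to 200 kb and 59.6% (31 of 52) at 200 kb or more, with no steady rise. On the X it was 33.6%, against 31.6% at background gaps, and on 3L it was 55.8% against 45.0%. A cluster that neither replicate had stood on 260 sides (36.1%), against 38.8% at background gaps and 34.2% of all clusters of the replicate-set list.

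The widest cluster beside a stretch was on 2L, from 16888762 to 16917146 (28.4 kb, score 1.20), of which replicate 1 covered 99.7% and replicate 2 covered 92.3%. Next came 2 on 3L, from 23119962 to 23142610 (22.6 kb) and from 3716750 to 3737306 (20.6 kb). The first of these stood inside the large run at the centromere end, and replicate 1 covered 84.95% of it and replicate 2 covered 42.4%. The fourth and the fifth were 3L 2090624 to 2106336 (15.7 kb) and 2R 13738480 to 13753752 (15.3 kb). Of the other 4, each replicate covered at least 72.0%.

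The highest scores at the edges came from a different kind of cluster. The 3 highest, on X 22013792 to 22014806 (2.22), 2R 15616968 to 15617978 (1.59) and 3R 21658356 to 21659356 (1.58), were 1015 bp, 1011 bp and 1001 bp wide, at the lower limit of the list's widths (1001 bp). Neither replicate had any base of a cluster in them, and no cluster of a replicate list was narrower than 1301 bp. The fourth and the fifth, 3R 17307442 to 17313662 (6221 bp, score 1.35) and 2L 17963294 to 17974520 (11227 bp, score 1.34), were at least 95.6% covered by each replicate. A high score at an edge was thus found both for narrow clusters of the replicate-set list alone and for wider ones in all 3 lists.

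Outside the edges, cluster coverage fell steeply over the first 10 kb and more slowly after that. In the first 5 kb outside a stretch, 65.0% lay in clusters of the replicate-set list, against 66.0% outside gaps of 5 to 50 kb, values fixed in part by the edge cluster itself. Coverage by this list outside stretches was 41.3% from 5 to 10 kb, 34.5% from 15 to 20 kb and 29.6% from 40 to 45 kb. Replicate 1 covered 41.8% and replicate 2 covered 39.1% of these 5 kb, against 37.9% and 35.8% outside the background gaps. From 5 to 10 kb the replicates covered 28.3% and 27.5%, against 28.3% and 26.8%. From 45 to 50 kb they covered 19.3% and 18.4% outside stretches, and 22.9% and 21.6% outside background gaps. In both replicates, coverage was thus higher outside stretches than outside background gaps in the first 5 kb and lower from 45 to 50 kb, while in the replicate-set list it was already lower in the first 5 kb.

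**Figure D5:**
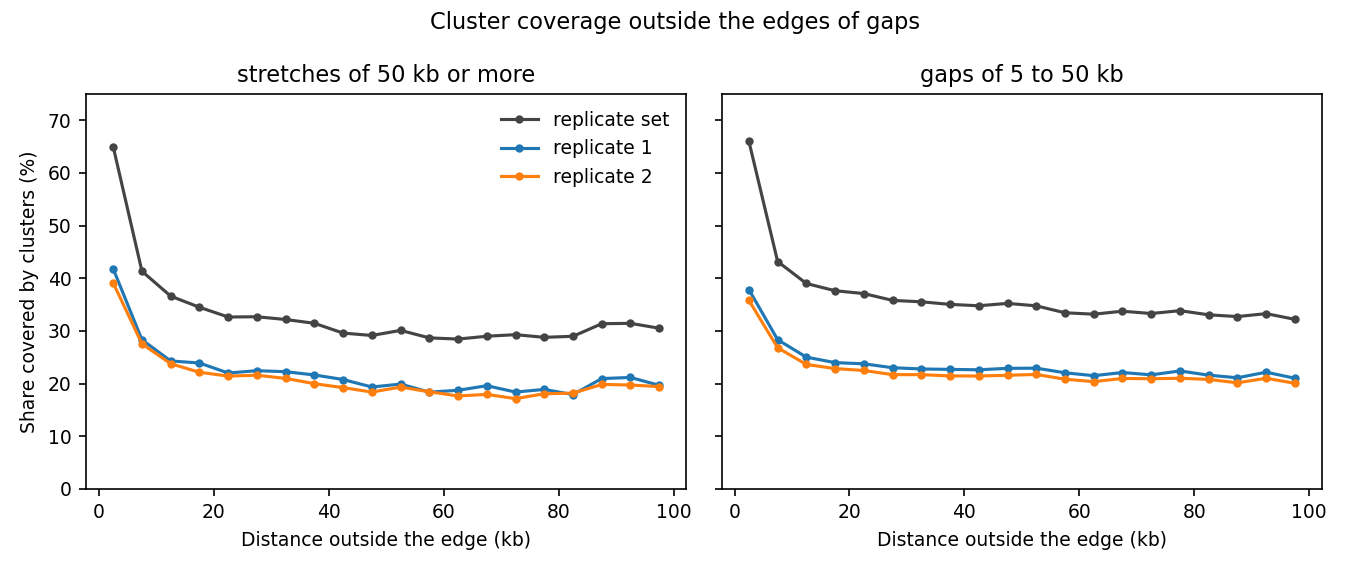
Share of sequence covered by clusters (percent) against the distance outside the edge of a gap (kb, bins of 5 kb, both sides pooled), for stretches of 50 kb or more (left) and gaps of 5 to 50 kb (right), in the 3 lists. From 45 to 50 kb outward the replicates lie at 19.3% and 18.4% for stretches and at 22.9% and 21.6% for gaps of 5 to 50 kb.

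The clusters that follow outward resembled those at the edge. From the first to the fifth cluster outward from a stretch, median widths were 2367, 2363, 2533, 2348 and 2598 bp, and median scores 0.53, 0.50, 0.51, 0.48 and 0.50. The score was highest at the edge cluster, while the widths followed no order. The gap on the far side of the edge cluster had a median of 3282 bp beside stretches, 2883 bp beside gaps of 5 to 50 kb and 1875 bp beside gaps under 5 kb. That next gap was itself a stretch on 9.75% of the sides of stretches, 4.56% of the sides of background gaps and 3.22% of the sides of gaps under 5 kb. Of all gaps, 3.82% were stretches. The 9.75% rested on 35 clusters, each counted from both sides, of which 20 were in neither replicate. Values for the replicate lists are not given here, and no closeness of stretches is read from these shares. A further cluster less than 5 kb away followed on 59.2% of the sides of stretches, 63.3% of the sides of background gaps and 73.3% of the sides of gaps under 5 kb.

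A single cluster parted 2 stretches in 35 places, of which 10 were on 3L and 10 on 3R. These lone clusters were narrow, with a median width of 1491 bp (1001 to 8049 bp), and had a median score of 0.52. Both replicates had 13 of them (37.1%), against 45.9% of all clusters. A single replicate had 2, and neither had 20, where 34.2% of all clusters were in neither. The highest score among them was the 2.22 of the X cluster named above, between stretches of 69.3 kb and 101.5 kb. It was followed by 2L 1500390 to 1503246 (2857 bp, score 0.94), at the right edge of the longest 2L stretch, which was in both replicates. Chromosome 4 gave the next (0.78, named above), followed by 3R 8041796 to 8047648 (5853 bp, score 0.78), between stretches of 121.7 kb and 126.9 kb, and X 9672940 to 9677368 (4429 bp, score 0.78), between stretches of 99.6 kb and 226.6 kb. The last 2 were also in both replicates.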

How the data were processed

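The authors deposited 3 lists of enriched regions (clusters) for H3K27me1 in adult fly heads, 1 per ChIP replicate and 1 for the replicate set, each with a start, an end and 1 score per cluster, a number with no stated unit. Per the file headers, coordinates are on FlyBase release 5. Bowtie 0.12.7 is a tool named in the submitters' processing notes. How clusters were called, at which threshold, and how the set list was built from both replicates is not given in the sources used here. Depth is unknown, so no counting interval is given.

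Gaps were taken between neighbouring sorted clusters on 6 arms, with arm lengths from the headers (Python 3.11.15, pandas 2.3.3, numpy 2.4.6). The centromere end of each arm is general knowledge. Any overlap of at least 1 bp counted. The gap and coverage code was tested on 20 simulated lists. The members and all measures were chosen with earlier results of these data known. Regions were named by rank: the 10 longest stretches and the 3 longest per arm, 3 gaps on each side of 50 kb, the run with the most members per arm, and the top 5 by replicate overlap, flank width, flank score and lone-cluster score. The 1 Mb blocks, the 3 shortest stretches of chromosome 4, the 58.4 kb stretch on 3L and the run of 4 on 3R were named outside this rule, after their values were seen. No test was run. The gene table at hand is of release 6 and was not used.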

Additional observations from a re-analysis of the deposited data

How the results depend on the processing

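No paired analysis was possible because no result comes from a test and the Input libraries have no cluster list here. The number of stretches (360) was 200 at a minimum of 75 kb and 128 at 100 kb, and lay within 1.5 times of the main number in the other settings (456 and 472 with a single replicate list). The share of the arms in stretches (30.9%) was 35.2%, 22.8% and 17.7% at minimum lengths of 40, 75 and 100 kb. It was 31.7% and 34.8% without the lowest 10% and 25% of scores, 37.3% without clusters under 1500 bp, 40.5% with the union of the replicate lists, and 44.7% to 44.8% with 1 replicate list.

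The X to autosomal ratio of stretches per Mb (0.897) turned to 1.02 at 75 kb, 1.15 at 100 kb, 1.04 without clusters under 1500 bp and 1.01 with the union, and was 0.934 to 1.14 with 1 replicate list. The share of stretches within 100 kb of another (64.7%) was 74.8%, 46.5% and 25.8% at 40, 75 and 100 kb, 66.7% and 69.7% without the lowest 10% and 25% of scores, 70.7% without clusters under 1500 bp, 75.8% with the union and 78.3% to 79.0% with 1 replicate list. With neighbours within 50 kb and 200 kb it was 48.3% and 82.8%. The part of the autosomal stretch length at the centromere ends (11.8%) was 11.5%, 14.0% and 13.4% at 40, 75 and 100 kb, and 11.5% and 11.03% without the lowest 10% and 25% of scores. It was 10.8% without clusters under 1500 bp, 10.3% with the union, 9.96% to 9.99% with 1 replicate list, and 7.34% and 19.7% for ends of 1 and 4 Mb.

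The share of stretch length in replicate clusters was 0.0190%, 0.0123% and 0.00862% at 40, 75 and 100 kb and 0.00785% without the outer 1 kb, against a mean of 0.0166%. Stretches with a whole replicate cluster numbered 2 at 75 kb and 1 at 100 kb, and 1 to 3 by replicate. The difference in flank width (168 bp) was 313 bp at 100 kb and 339 bp against gaps of 20 to 50 kb, and turned to -117 bp without the lowest 25% of scores and -12 bp on the X. It was -84.0 to 81.5 bp with 1 replicate list. The difference in flank score (0.0281) was 0.0215 at 75 kb, 0.0204 without the lowest 25% of scores, 0.0362 on the autosomal arms, 0.0231 on the X and 0.0012 to 0.0064 with 1 replicate list. The cause of these changes was not tested.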

Other observations

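Outside the 6 arms, gaps of 50 kb or more were also counted on the heterochromatic scaffolds and on the unplaced sequence U. On the scaffolds the replicate-set list had 20 such gaps, which held 55.4% of their 9.28 Mb, and the longest measured 1154 kb. Replicate 1 had 19 of them (58.3%) and replicate 2 had 14 (58.0%). On U the replicate-set list had 51 gaps over 70.9% of 10.0 Mb, replicate 1 had 35 over 78.3% and replicate 2 had 28 over 81.8%. These sequences hold few clusters, 91 on the scaffolds and 151 on U in the replicate-set list, so their gaps rest on few edges.

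The sequence before the first and after the last cluster of an arm was not counted as a gap by the rule. It reached 50 kb in 2 places, 52.2 kb at the start of 3L and 51.5 kb at the start of chromosome 4, and at the start of the X it was 0.113 kb.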
